A study of Mus musculus with 4 samples.

Results

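The genes described here are 9 genes of the cardiac sarcomere, *Myh6*, *Myh7*, *Myl2*, *Myl3*, *Myl4*, *Myl7*, *Tnnt2*, *Tnni1* and *Actc1*, together with the natriuretic peptide gene *Nppa*. They were chosen by name, as contractile genes of the atria and ventricles and a peptide hormone of the same cells, and make up 10 of the 24729 genes named on the array, with 18 of its 56605 probes. The brightest probe of each of the 10 genes was well above background on all 4 arrays.

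Total RNA of whole mouse embryos of the strain C57BL/6 was labelled with Cy3 and hybridized to one-colour Agilent arrays, on which every spot carries a probe of 60 bases and its brightness is the measurement. There were 4 groups with 1 array each, all on 1 slide: wild type (WT) and *Dyrk2*-/- embryos, each at the embryonic ages E8.5 and E10.5. The *Dyrk2*-/- embryos carry small deletions made with a CRISPR/Cas9 nickase, and the labels name no agent. The sources used here give neither how many embryos were pooled nor which deletion each RNA carried, and with 1 array per group no difference between genotypes at a stage has a replicate check.

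The sarcomere is the contractile unit of striated muscle, in which thick filaments of myosin pull on thin filaments of actin. Each myosin heavy chain binds a regulatory and an essential light chain, and the troponin complex on the thin filament makes contraction depend on calcium. In the mouse embryo the linear heart tube begins to beat and then forms atrial and ventricular chambers, whose myocardium comes to differ in its light chains and in the secretion of natriuretic peptide.

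Values are log2 intensities from which the 75th percentile of the array was subtracted, so that every difference is relative to all probes of an array. A gene is given by its brightest probe, and a difference was counted when it reached 1.5-fold. Each probe of these genes has 1 spot per array, so the spread between spots was taken from other probes printed several times. Between genotypes its SD for a log2 ratio was 0.15 (E8.5) and 0.11 (E10.5). Between stages it was 0.12 in WT and 0.14 on the arrays labelled *Dyrk2*-/-. It covers the spots of an array and not the difference between embryos. In RNA of whole embryos, a smaller share of heart muscle cells and less RNA of a gene per cell cannot be told apart.

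The targeted gene was read first. *Dyrk2*, which encodes a protein kinase, had at its brightest probe (chr10:118296479-118296538, mm9) log2 values of 0.06 in WT and 0.76 on the array labelled *Dyrk2*-/- at E8.5. The E10.5 arrays gave −0.31 and 0.34. Its other probe gave −0.23, −0.20, −0.28 and −0.0048 in the same order. Neither probe was lower where the label says *Dyrk2*-/-. The brightest was higher there, by 1.62-fold at E8.5 and 1.57-fold at E10.5, both past the 1.5-fold threshold. It is not known here whether either probe overlaps the deleted bases, so these values check nothing, and each direction between genotypes below rests on the labels.

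Between E8.5 and E10.5 the genes parted into *Nppa* and *Myl2*, which were higher at E10.5, and the others, most of which were lower. In WT 7 of 10 genes were 1.5-fold or more apart between the stages, against 37.6% of all 16455 genes tested. Of these, 2 were higher, where 19.3% of all genes were, and 5 were lower, where 18.3% were. On the arrays labelled *Dyrk2*-/- 9 of 10 were 1.5-fold or more apart (31.4% of 16210 genes), 2 of them higher (17.1%) and 7 lower (14.3%). The median log2 ratio of the 10 genes was −0.61 in WT and −0.68 on the arrays labelled *Dyrk2*-/-, beside −0.09 and −0.07 over all genes tested. In the limma fit over all 4 arrays, which carries a genotype term and leaves 1 degree of freedom for the residual, 9 of the 10 genes passed an adjusted p of 0.05 for stage, as did 35.2% of the 32289 probes tested. Among them 2 were higher at E10.5, with 15.7% of all probes, and 7 were lower, with 19.6%.

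Between genotypes fewer of the genes reached 1.5-fold. At E8.5, 1 of 10 genes was 1.5-fold or more apart (9.66% of 15789 genes), and it was higher on the array labelled *Dyrk2*-/- (4.24%), while 0 were lower (5.43%). At E10.5, 0 of 10 reached 1.5-fold (6.78% of 16122 genes) in either direction, where 2.77% of all genes were higher and 4.01% lower. At E8.5 the 10 genes had a median log2 ratio of 0.13, with 6 above 0 and 4 below. At E10.5 the median was −0.06, with 3 above and 7 below. Over all genes tested it was −0.03 and −0.02. At each stage 6 of the 10 genes differed by more than the spread between spots, as did 56.8% of all genes at E8.5 and 52.5% at E10.5. Limma called 0 of the 10 genes for genotype over both stages (0.0186% of probes were called), and at an unadjusted p under 0.05 it also called 0 of them (4.93% of probes).

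These directions depend on the scaling. The spike-in control probes, scaled to equal medians, moved the median log2 ratio of all genes between genotypes to −0.58 (E8.5) and 0.15 (E10.5), and between stages to −0.16 in WT and 0.57 on the arrays labelled *Dyrk2*-/-. That scaling shifts all ratios of a comparison by a constant. The sign turned for 4 of the 10 genes at E8.5 (*Myh7*, *Myl3*, *Tnni1* and *Actc1*), for 4 at E10.5 (the same 4 genes), and for *Myl3* between the stages on the arrays labelled *Dyrk2*-/-. Between the stages in WT it turned for 0 genes. On the arrays labelled *Dyrk2*-/- 2 of the 10, *Myl2* and *Nppa*, were then 1.5-fold or more apart between the stages (54.1% of all genes). Limma under this scaling called 1 of the 10 for stage, *Nppa*, and 8.15% of all probes. Without scaling the sign turned for *Myh7* and *Tnni1* at E8.5, *Myl4* at E10.5 and *Myl3* between the stages on the arrays labelled *Dyrk2*-/-, and quantile normalization turned *Myh6* and *Myl7* at E8.5, both of which lay within the spread between spots.

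**Figure D1:**
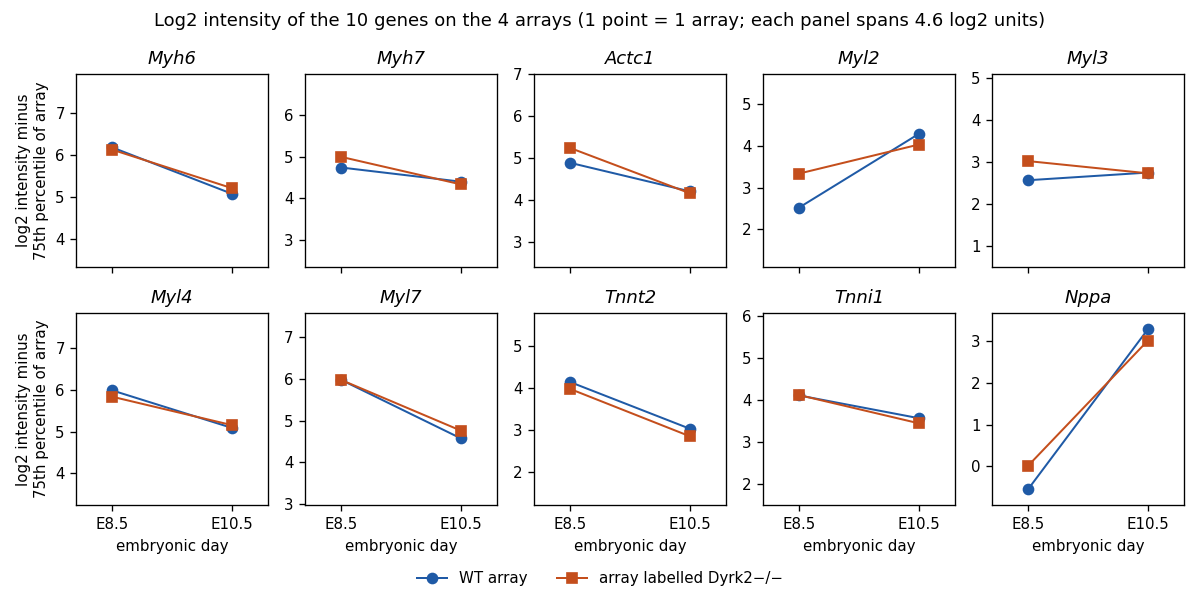
Log2 intensity minus the 75th percentile of the array (vertical axis) at E8.5 and E10.5 (horizontal axis) for each of the 10 genes, with circles for WT arrays and squares for arrays labelled *Dyrk2*-/-, 1 point per array and no error bar. *Nppa* lies between −0.54 and 0.02 at E8.5 and between 3.01 and 3.28 at E10.5.

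The myosin heavy chains are the motors of the thick filament. *Myh6* encodes the alpha heavy chain, the main form of the embryonic atria and the adult mouse heart, and its brightest probe lies at chr14:55560774-55560833 (mm9, minus strand). Its log2 value was 6.18 in WT and 6.13 on the array labelled *Dyrk2*-/- at E8.5, against 5.08 and 5.21 at E10.5. Both E8.5 arrays were high and both E10.5 arrays low, with a fold of 2.16 between the stages in WT and 1.89 on the arrays labelled *Dyrk2*-/-. Between genotypes it was 1.04-fold lower at E8.5, within the spread between spots, and higher at E10.5, with a log2 ratio of 0.13. *Myh7*, which encodes the beta heavy chain of the ventricle (probe at chr14:55589581-55589640), gave 4.74 and 4.99 at E8.5, against 4.40 and 4.33 at E10.5. It was lower at E10.5 by 1.26-fold in WT and 1.58-fold on the arrays labelled *Dyrk2*-/-. A further probe of each gene was also lower at E10.5, by 1.78-fold and 2.27-fold for *Myh6* and by 2.27-fold and 2.79-fold for *Myh7*. At E8.5 both further probes were higher on the array labelled *Dyrk2*-/-, by 1.32-fold and 1.34-fold, so that the *Myh6* probes disagree in direction there. The *Myh7* probes disagree at E10.5, where the brightest was lower on the array labelled *Dyrk2*-/- (log2 ratio −0.06) and the further one higher (0.12).

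The regulatory light chains showed opposite stage differences. *Myl2* encodes the ventricular form, and its probe lies at chr5:122556732-122556791 (mm9, plus strand). Its log2 value was 2.52 in WT and 3.33 on the array labelled *Dyrk2*-/- at E8.5, against 4.28 and 4.03 at E10.5. The WT E8.5 array was the lowest, the other E8.5 array lay between, and both E10.5 arrays were high. The stage difference was 3.39-fold in WT and 1.62-fold on the arrays labelled *Dyrk2*-/-, and in the limma fit 1.23 ± 0.21 (log2, SE) with an adjusted p of 0.00222, a call that limma did not make under spike-in scaling or without the intensity trend. The log2 stage ratios behind that estimate were 1.76 in WT and 0.69 on the arrays labelled *Dyrk2*-/-. Its SE is moderated by the variance of other probes of like intensity and does not measure the spread between embryos. At E8.5 *Myl2* was 1.76-fold higher on the array labelled *Dyrk2*-/- and was the gene counted above, while at E10.5 it was 1.19-fold lower there. At E8.5 5.25% of all genes tested differed at least as much in either direction. Scaling by the spike-in controls brought its E8.5 ratio to 0.26.

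*Myl7* encodes the atrial regulatory light chain, which the early heart tube expresses throughout. Its probe (chr11:5796640-5796699, mm9, minus strand) gave 5.97 on both E8.5 arrays, and at E10.5 4.57 in WT and 4.76 on the array labelled *Dyrk2*-/-. The E8.5 arrays were alike and both E10.5 arrays lower, by 2.64-fold in WT and 2.32-fold on the arrays labelled *Dyrk2*-/- (limma adjusted p 4.82e-05). A difference between genes within an array does not depend on a factor that scales the whole array. The change of *Myl2* less that of *Myl7*, a pair chosen after the values were seen, was 3.16 (log2) between the stages in WT and 1.91 on the arrays labelled *Dyrk2*-/-. Between genotypes it was 0.81 at E8.5, against −0.44 at E10.5. Other pairs of a ventricular and an atrial form changed less between the stages. *Myl3* less *Myl4* gave 1.08 in WT and 0.39 on the arrays labelled *Dyrk2*-/-, and *Myh7* less *Myh6* 0.77 and 0.26. The lowest values of *Myh7* less *Myh6* under the alternatives were 0.21 and −0.017.

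The essential light chains bind beside the regulatory ones on the neck of the myosin head. *Myl3*, the ventricular form that slow skeletal muscle shares, gave log2 values of 2.56 and 3.02 at E8.5, against 2.74 and 2.72 at E10.5, in WT and on the array labelled *Dyrk2*-/-. The WT E8.5 array was the lowest and the other E8.5 array the highest, 1.37-fold apart, and the E10.5 arrays differed by 1.01-fold. It was the 1 gene of the 10 that did not pass limma's threshold for stage (adjusted p 0.795). *Myl4*, the atrial and embryonic form, gave 5.98 and 5.83 at E8.5, against 5.09 and 5.15 at E10.5. Both E8.5 arrays were high, by 1.86-fold in WT and 1.60-fold on the arrays labelled *Dyrk2*-/-. A further *Myl4* probe was lower at E10.5 by 1.70-fold and 1.76-fold. Between genotypes at E10.5 the brightest probe was 1.05-fold higher and this one 1.05-fold lower on the array labelled *Dyrk2*-/-, both within the spread between spots. The last *Myl4* probe stayed below the limit of well above background on all 4 arrays.

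Of the thin filament, *Actc1* encodes cardiac alpha-actin, the actin that embryonic skeletal muscle also uses. Its log2 value was 4.89 in WT and 5.24 on the array labelled *Dyrk2*-/- at E8.5, against 4.20 and 4.16 at E10.5. Both E8.5 arrays were above both E10.5 arrays. It was 1.28-fold higher on the array labelled *Dyrk2*-/- at E8.5, and at E10.5 the genotypes differed by 1.03-fold. The E10.5 arrays were lower by 1.60-fold in WT and 2.12-fold on the arrays labelled *Dyrk2*-/-, and in WT the ratio fell short of 1.5-fold under quantile normalization (log2 ratio −0.43), in the deposited table (−0.43) and without scaling (−0.50). Actin genes are nearly alike in their coding sequence, and its probe can bind transcripts of the others.

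*Tnnt2* encodes cardiac troponin T, which anchors the troponin complex to tropomyosin. It gave 4.15 and 3.98 at E8.5, against 3.03 and 2.85 at E10.5. Both E10.5 arrays were lower, by 2.17-fold in WT and 2.19-fold on the arrays labelled *Dyrk2*-/-, and the array labelled *Dyrk2*-/- was lower than WT at both stages, by 1.12-fold and 1.13-fold. These ratios lay beyond the spread between spots, but within it at E8.5 under quantile normalization and in the deposited table (log2 ratio −0.10 in each) and at E10.5 under spike-in scaling (−0.019), and at both stages with the mean over probes (−0.099 and −0.076). A further probe, of an Ensembl transcript, gave 0.42 and 0.38 at E8.5, against −1.65 and −1.62 at E10.5, a 4.17-fold difference in WT. It differed between genotypes by 1.02-fold at both stages. The last *Tnnt2* probe stayed below that limit on all 4 arrays. *Tnni1* encodes the slow skeletal form of the inhibitory subunit, which the embryonic heart uses before the cardiac form. It gave 4.10 and 4.11 at E8.5, against 3.56 and 3.44 at E10.5. The E10.5 arrays were 1.46-fold and 1.60-fold lower. On the array labelled *Dyrk2*-/- it was higher by 1.01-fold at E8.5, within the spread between spots, and lower by 1.09-fold at E10.5, while its further probe was higher at both stages, by 1.09-fold and 1.05-fold.

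*Nppa* encodes atrial natriuretic peptide, a hormone that the embryonic chamber myocardium secretes. Its brightest probe lies at chr4:147376024-147376083 (mm9, plus strand). Its log2 value was −0.54 in WT and 0.02 on the array labelled *Dyrk2*-/- at E8.5, against 3.28 and 3.01 at E10.5. Both E10.5 arrays were far above both E8.5 arrays, by 14.1-fold in WT and 7.95-fold on the arrays labelled *Dyrk2*-/-, and limma gave 3.41 ± 0.19 (log2, SE) with an adjusted p of 2.88e-06. The log2 stage ratios behind that estimate were 3.82 and 2.99, and its SE is moderated by other probes as for *Myl2*. In WT 2.01% of all genes tested differed at least as much between the stages in either direction. At E8.5 *Nppa* was 1.48-fold higher on the array labelled *Dyrk2*-/-, under the threshold, and at E10.5 1.21-fold lower. Its other probe gave −2.46 and −1.53 at E8.5, against 1.56 and 1.35 at E10.5, which is 1.90-fold higher on the array labelled *Dyrk2*-/- at E8.5 and 1.16-fold lower at E10.5. With the mean of both probes *Nppa* passed 1.5-fold at E8.5 (log2 ratio 0.74), and under the spike-in scaling its brightest probe gave 0.01.

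**Figure D2:**
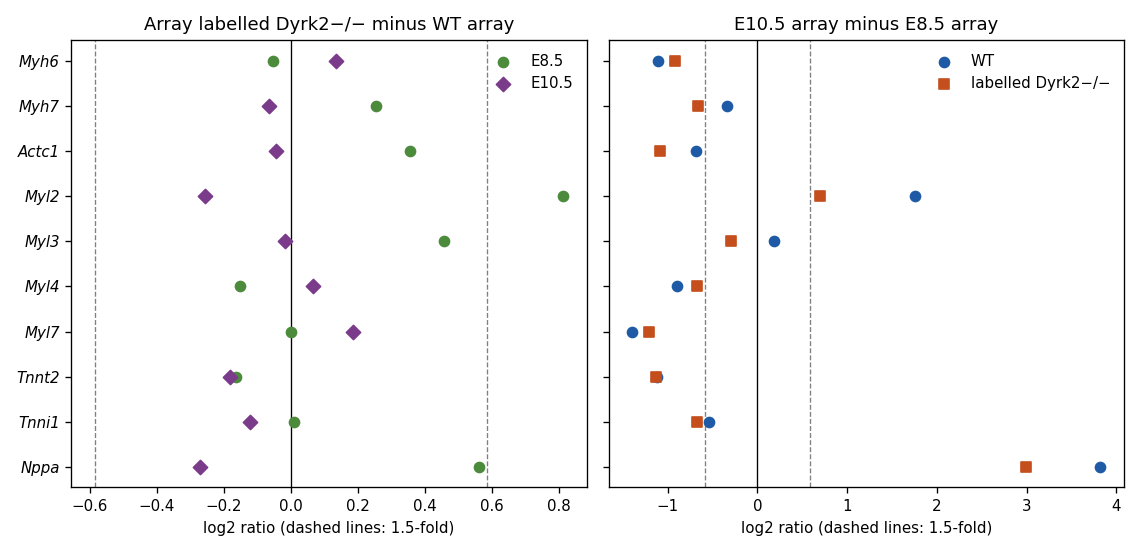
Log2 ratios (horizontal axis) of the 10 genes (vertical axis), on the left between the array labelled *Dyrk2*-/- and the WT array at E8.5 (circles) and E10.5 (diamonds), and on the right between E10.5 and E8.5 in WT (circles) and on the arrays labelled *Dyrk2*-/- (squares), with dashed lines at 1.5-fold. On the left *Myl2* at E8.5, at 0.81, is the single point beyond a dashed line, and spike-in scaling brings it to 0.26.

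The stage ratio in WT and the genotype ratio at E8.5 share the WT E8.5 array, so their likeness is no result. Side by side, the log2 ratios were 3.82 and 0.56 for *Nppa*, 1.76 and 0.81 for *Myl2* and 0.18 and 0.46 for *Myl3*. They were −1.11 and −0.05 for *Myh6*, −1.40 and −0.0011 for *Myl7*, −0.90 and −0.15 for *Myl4*, and −1.12 and −0.17 for *Tnnt2*. The signs were opposite for *Myh7* (−0.34 and 0.25), *Actc1* (−0.68 and 0.35) and *Tnni1* (−0.54 and 0.0086).

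Markers of red blood cells differed between the E8.5 arrays. On the array labelled *Dyrk2*-/- 11 of 11 genes of that list were 1.5-fold or more higher (4.24% of all genes). Their median log2 ratio was 4.27, with the bound standing in for the 2 genes not well above background in WT. The largest ratios were those of *Hbb-y* (6.00), *Slc4a1* (5.09) and *Hba-x* (5.08). At E10.5 7 of 11 were higher (2.77% of all genes), with a median of 1.11, among them *Klf1* (1.32) and *Gata1* (1.23). At that stage *Hbb-y*, *Slc4a1* and *Hba-x* gave log2 ratios of 0.03, 1.12 and 0.66. Globin genes are closely related, and a probe of one can bind RNA of another. Their summed intensity, in units of the 75th percentile of the array, was 17.4 in WT and 384 on the array labelled *Dyrk2*-/- at E8.5, against 1377 and 1603 at E10.5, with the brightest probe that of *Hbb-bh1*, an embryonic beta-globin, at E8.5 and that of *Hbb-y* at E10.5, which is an order of probes and not of transcripts. On the WT E8.5 array *Klf1* was not well above background. For the 10 genes described here this sum was 302 and 312 at E8.5, against 187 and 187 at E10.5. What part blood RNA has in the ratios of these genes was not tested.

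Other genes of the sarcomere were read from a list of 35. Between the stages in WT 4 of 33 measured were 1.5-fold or more higher and 15 lower, with a median log2 ratio of −0.42, and on the arrays labelled *Dyrk2*-/- 3 were higher and 17 lower, with a median of −0.61. *Myot* and *Myoz2*, of the Z-disc, and *Myom2*, of the M-band, were the 3 with the highest log2 ratios in WT, at least 2.08-fold, at least 2.15-fold and 2.81-fold higher at E10.5. They were also the 3 counted as higher on the arrays labelled *Dyrk2*-/-, where none of them was well above background at E8.5 and the bounds were at least 1.08-fold, at least 1.08-fold and at least 1.99-fold. *Ankrd1*, named after its values were seen, was the lowest, with a log2 ratio of −2.27. Between genotypes 3 of 31 were higher at E8.5 and 1 lower, and at E10.5 1 of 33 was higher and 4 lower. At E8.5 these were *Mybphl* (log2 ratio 0.79), *Tnni3*, the cardiac form of the inhibitory troponin subunit (0.62), *Myom1* (0.60) and, lower, *Myom2* (at least 1.38-fold). At E10.5 *Tmod1*, which caps thin filaments and is also part of the red cell skeleton, was higher (0.93), and *Myom2* (−0.96), *Myoz2* (−0.69), *Myot* (−0.65) and *Nrap* (−0.59), whose annotated probe position on chromosome 3 could not be checked, were lower.

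Of 20 genes of calcium handling and excitation, 6 of 19 measured were 1.5-fold or more higher at E10.5 in WT and 6 lower, and 5 and 7 on the arrays labelled *Dyrk2*-/-. *Sln* and *Pln*, small inhibitors of the calcium pump, were at least 11.2-fold and 5.12-fold higher at E10.5 in WT, and at least 4.78-fold and 3.78-fold on the arrays labelled *Dyrk2*-/-, and *Casq2*, which stores calcium, was 4.14-fold and at least 3.97-fold higher. Between genotypes 0 were higher at either stage, with median log2 ratios of −0.03 (E8.5) and −0.04 (E10.5). The lower ones at E8.5 were *Casq2* (at least 2.21-fold) and the channel gene *Cacna1d* (log2 ratio −0.94), and at E10.5 *Casq2* (−1.20) and *Sln* (−0.93). In a list of 14 genes of chamber identity and secreted factors, 3 of 13 measured were higher at E8.5 on the array labelled *Dyrk2*-/-, namely *Adm* (1.32), *Nppb*, the other cardiac natriuretic peptide (0.74), and the gap junction gene *Gja5* (0.73), and 0 were lower. Of the 13, 7 were below 0, with a median log2 ratio of −0.05. At E10.5 0 of 13 differed by 1.5-fold, with a median of −0.08. *Gja5*, *Corin*, the protease that cleaves the precursor of atrial natriuretic peptide, and *Nr2f2* had the highest log2 ratios between the stages in WT (2.38, 1.64 and 0.96).

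The other lists, of factors and of cell types that a whole embryo holds, are given by their counts at 1.5-fold between genotypes and, in the order E8.5 and E10.5, by their median log2 ratios. The shares of all genes at 1.5-fold are those given with the sarcomere list. The brightest gene of a list is that with the highest mean over the 4 arrays. Of 20 cardiac transcription factors, with *Tbx3* the brightest, *Gata5* was higher (0.62) and *Mesp1* lower (−1.35) at E8.5, and 0 of 19 differed at E10.5 (medians −0.04 and 0.01). Of 18 skeletal muscle genes, with *Myl1* the brightest, 0 of 11 measured differed at E8.5 and 7 of 16 were lower at E10.5, the largest being *Myod1* (−1.33), *Myh3* (−1.12) and *Tnnc2* (−1.08), with medians of 0.22 and −0.52. The summed intensity of that list was 20.1 and 22.4 at E8.5, against 33.8 and 23.5 at E10.5. Skeletal muscle shares genes of the 10 with the embryonic heart, among them *Actc1*, *Myl3*, *Myl4* and *Tnni1*. Its part in the values of any of the 10 was not tested. Of 8 smooth muscle genes, with *Acta2* the brightest over the 4 arrays and *Myl9* at E10.5, 0 of 7 differed at either stage (medians 0.08 and −0.06). Of 8 endothelial and endocardial genes, with *Kdr* the brightest, *Emcn* was higher at E8.5 (0.61; medians 0.23 and −0.05), and of 5 epicardial genes, with *Aldh1a2* the brightest, *Upk3b* (1.01; medians 0.20 and −0.03). Of the neural genes, with *Sox2* the brightest over the 4 arrays and *Tubb3* at E10.5, *Neurog2* was higher at E8.5 (0.86) and *Dcx* lower at E10.5 (−0.59; medians −0.05 and −0.40). Of the hepatic and yolk sac genes, with *Afp* the brightest, *Ttr* and *Apob* were lower at E8.5 (−0.63 each; medians −0.56 and −0.44). Between the stages the median log2 ratios, in WT and on the arrays labelled *Dyrk2*-/-, were 6.28 and 2.38 for the red blood cell list, 3.22 and 2.50 for the neural list and 1.64 and 1.38 for the epicardial list. They were 0.90 and 0.57 (0.18 at the bounds) for skeletal muscle, 0.13 and −0.0052 for endothelium, −0.34 and −0.62 for smooth muscle, −0.42 and −0.51 for the cardiac factors and −1.31 and −1.20 for the hepatic and yolk sac list. What part these lists have in the stage ratios of the 10 genes was not tested.

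The genes nearest to the median pattern of the 10 were sought among 14579 genes well above background on all 4 arrays. The mean-centred median of the 10 genes was 0.28 in WT and 0.35 on the array labelled *Dyrk2*-/- at E8.5, against −0.33 and −0.36 at E10.5. The nearest were *Mb21d2*, *P4hb*, *Dgke*, *Chst2* and *Trip13*, at root mean square distances of 0.018 to 0.023 on the log2 scale over the 4 arrays. Of the 10 genes themselves *Nppa* and *Myl2* lay farthest from that median, at 2.04 and 0.98.

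Of the brightest probes, those of *Myl3*, *Tnnt2* and *Actc1* span a splice junction, since their target covers 295, 313 and 924 bases of the genome, and so do further probes of *Myl4* and *Tnni1*. They are shown because they read spliced RNA of these genes. In the array annotation (mm9) they lie at chr9:110671632-110671926, chr1:137747976-137748288, chr2:113874011-113874934, chr11:104445435-104445805 and chr1:137705328-137706203, in that order, and that of *Actc1* is on the minus strand.
Myl3: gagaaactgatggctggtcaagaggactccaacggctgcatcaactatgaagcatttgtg
Tnnt2: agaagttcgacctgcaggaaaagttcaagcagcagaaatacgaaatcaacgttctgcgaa
Actc1: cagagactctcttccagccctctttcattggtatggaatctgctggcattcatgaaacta
Myl4: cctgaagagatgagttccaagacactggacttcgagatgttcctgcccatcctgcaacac
Tnni1: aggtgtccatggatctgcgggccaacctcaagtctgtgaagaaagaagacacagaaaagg

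The promoters of *Nppa*, *Myl2* and *Myl7* are shown because these genes differed most of the 10 between the stages in WT. RefSeq windows of GRCm38.p6, from 250 bases before to 50 after a start, were at hand for all 10 genes (14 windows), and 6 motifs were searched on both strands. TATAAA stood in windows of 4 of the 10 genes and in 13.6% of all 32851 windows, GATAA, the core bound by GATA factors, in 5 (25.4%), AAGTG, the core bound by Nkx2-5, in 7 (46.4%), CATTCC, the core bound by TEAD factors, in 5 (14.7%), the CArG box, bound by SRF, in 3 (*Myl3*, *Myl7* and *Actc1*; 1.63%) and the MEF2 site in 0 (3.19%). Counted by window, as those shares are, the 6 motifs stood in 4, 5, 8, 5, 3 and 0 of the 14 windows, in that order. No match overlapped one of another motif. Capitals mark the matches, and a match is no evidence of binding. The *Nppa* window (chr4:148000472-148000771, plus strand) and that of *Myl2* (chr5:122092474-122092773, plus strand, the more upstream of its pair) hold GATAA and AAGTG, the first with TATAAA as well, and that of *Myl7* (chr11:5898733-5899032, minus strand) holds both, CATTCC and a CArG box.
Nppa: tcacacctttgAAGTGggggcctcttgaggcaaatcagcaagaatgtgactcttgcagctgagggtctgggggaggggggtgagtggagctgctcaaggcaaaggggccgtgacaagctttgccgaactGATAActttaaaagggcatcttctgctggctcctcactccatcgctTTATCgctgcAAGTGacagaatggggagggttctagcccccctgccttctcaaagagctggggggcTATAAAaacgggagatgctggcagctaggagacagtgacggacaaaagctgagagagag
Myl2: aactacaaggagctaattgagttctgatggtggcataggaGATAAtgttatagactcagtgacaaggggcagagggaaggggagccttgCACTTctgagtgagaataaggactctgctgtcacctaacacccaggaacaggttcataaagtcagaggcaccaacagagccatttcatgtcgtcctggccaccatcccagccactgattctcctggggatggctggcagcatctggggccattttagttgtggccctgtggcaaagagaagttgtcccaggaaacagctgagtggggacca
Myl7: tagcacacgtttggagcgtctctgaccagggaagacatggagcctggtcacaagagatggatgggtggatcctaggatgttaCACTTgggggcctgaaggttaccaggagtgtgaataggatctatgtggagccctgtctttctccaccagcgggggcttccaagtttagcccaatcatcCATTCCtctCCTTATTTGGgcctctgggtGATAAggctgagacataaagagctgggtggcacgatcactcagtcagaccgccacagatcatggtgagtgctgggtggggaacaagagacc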

How the data were processed

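Each array's scanner file was deposited by the authors as written by Agilent Feature Extraction, whose version is 10.7.1.1 in the file headers and 9.5.1.1 in the submitters' processing notes. It gives linear intensity per spot after background subtraction, with no scaling between arrays, and a table of processed intensity was deposited beside it. Here log2 was taken, spots of a probe were averaged leaving out outliers, and each array's 75th percentile was subtracted. Between 30227 and 31944 of 56605 probes were well above background per array, and 1 probe without a value was left out. A gene entered a comparison when its brightest probe was well above background on 1 array of the pair or both. Where 1 array of a pair measured a probe, its fold is a bound, taken against the dimmer array's lowest value above background or the probe's own if higher. Counts at 1.5-fold used the measured ratio. Limma 3.58.1 (terms for stage and genotype, lmFit and eBayes, variance trend over intensity, Benjamini-Hochberg adjustment) was fitted to probes above background on at least 2 arrays, and its residual is how far the stages differ in the genotype effect. The eBayes step draws each SE toward that of probes of like intensity, so no SE or p-value measures the spread between embryos. Alternatives were quantile normalization, scaling by 7 of 10 spike-in probes, no scaling, normexp with an offset of 50, the deposited table, the mean over probes, a stricter filter, no filter, a 2-fold threshold and eBayes without the trend. The members and lists were chosen with earlier results of these data known, and *Des*, *Npr3* and *Tbx5* each stand in 2 lists. Named are all 10 genes with every probe, *Dyrk2*, list genes past 1.5-fold between genotypes (up to 4 per direction in the heart lists and 3 in the others), the 3 highest log2 ratios of E10.5 to E8.5 in WT of the sarcomere, calcium and chamber lists, the brightest gene of the others and the 5 nearest genes. A gene that this rule would name is not reported here. Software was Python 3.11.15 with pandas 2.3.3, numpy 2.4.6 and matplotlib 3.10.9, and R 4.3.3 with the package data.table (version 1.17.8).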

Additional observations from a re-analysis of the deposited data

Results flagged for a closer look

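The genotype ratio of *Myl2* had opposite signs at the stages, each beyond the spread between spots. It was 0.81 (log2) at E8.5, against −0.26 at E10.5, a difference of 1.07. For *Nppa* it was 0.56 at E8.5, against −0.27 at E10.5, a difference of 0.83. The signs were opposite under all alternative settings that can change these ratios, 5 of 5 for *Myl2* and 6 of 6 for *Nppa*, but under spike-in scaling the ratios of *Nppa* at E8.5 (0.014) and E10.5 (−0.11) and that of *Myl2* at E10.5 (−0.094) lay within the spread between spots. The stage ratio of *Myl3* was 0.18 in WT and −0.29 on the arrays labelled *Dyrk2*-/-, a difference of 0.48, and the signs were opposite under 3 of 5 such settings. Quantile normalization and the deposited table, counted separately here, gave nearly the same ratios (0.335 in WT and −0.175 under each). Under spike-in scaling the ratios were 0.11 in WT and 0.35 on the arrays labelled *Dyrk2*-/-, so that WT had the lower one. With 1 array per group these differences were not tested, and the spread between spots as a limit was chosen after the values were seen.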

How the results depend on the processing

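Each group has 1 array, so no replicate could be left out. The limma fit, with its terms for stage and genotype, compares the genotypes within stages and the stages within genotypes. Genes 1.5-fold or more apart at E8.5 numbered 1 of 10. They were 3 under spike-in scaling (49.9% of all genes), all lower, 0 without scaling (16.2%), 2 with the mean over probes (9.79%) and 0 at a 2-fold threshold (3.57%). Between the stages on the arrays labelled *Dyrk2*-/- they numbered 9, and 2 under spike-in scaling (54.1% of all genes) and 4 at 2-fold (17.2%). Under quantile normalization, without scaling and in the deposited table they numbered 6, without *Myh7*, *Myl4* and *Tnni1*, and under normexp 8, without *Tnni1*. Limma called 9 genes for stage, and 1 under spike-in scaling (8.15% of probes), with 6 to 9 under the others. *Myh7* was not called under quantile normalization, in the deposited table, without scaling and without the trend, *Tnni1* without scaling and without the trend, and *Myl2* without the trend. The median log2 ratio at E8.5 was 0.13, and −0.42 under spike-in scaling and −0.13 without scaling. At E10.5 it was −0.06, and 0.11 and −0.19. Between the stages in WT it was −0.61, and −0.37 under quantile normalization, −0.37 in the deposited table and −0.43 without scaling. On the arrays labelled *Dyrk2*-/- it was −0.68, and −0.038 under spike-in scaling, −0.37 without scaling and −0.90 with the mean over probes. The cause was not tested. Limma called 0 of the 10 genes for genotype under each of its 8 alternatives, and at an unadjusted p under 0.05 it called 1 without scaling (14.1% of probes) and 1 without the filter (6.82%). Of 224 ratios of single genes under alternatives that can change them, 117 moved by less than the spread between spots, and none that had reached 1.5-fold changed sign. All 10 genes were well above background on every array at their brightest probe, so that signal over background limits their further probes and the dim genes of the other lists.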
